A study of Homo sapiens with 2 samples.

Results

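The cytosolic ribosomal protein transcripts are the mRNAs of the protein-coding genes named RPL or RPS followed by a number, of RPLP0, RPLP1 and RPLP2, and of RPSA. The RPS6K kinase genes and RPS19BP1 were left out, since their names only resemble those of ribosomal proteins. This rule found 90 genes among the 20046 protein-coding genes of GENCODE release 44. They comprised 77 standard genes (43 of the large or 60S subunit, 31 of the small or 40S subunit and 3 of the P stalk, which recruits translation factors), 10 paralogs and 3 readthrough genes, in which a ribosomal protein gene runs into its neighbour. Contacts of the RNA-binding protein RBMS3 with RNA were mapped by crosslinking and immunoprecipitation with sequencing (CLIP-seq) in MDA-MB-231 cells, a human cell line established from triple-negative breast cancer. All cells carried stably expressed RBMS3 with a FLAG tag, delivered by a lentiviral vector, so the sites are those of the exogenous, tagged protein. They were irradiated with ultraviolet light at 254 nm and 400 mJ/cm2, and the RNA crosslinked to RBMS3 was recovered with an antibody against the tag. There was 1 group with 2 biological replicates, whose tags were pooled before sites were called, and the spread between replicates is therefore unknown for every value. The labels of replicate 2 give MDA-MB-231 in the title and a differently numbered line elsewhere, and the title was followed. No control library and no measurement of RNA levels were analysed here, so the abundance of a transcript and its occupancy by RBMS3 cannot be told apart. Among genes typical of this mesenchymal line, VIM, CD44, CAV1 and AXL each had a site, and among luminal or receptor genes GATA3 and KRT18 had one but ESR1, PGR and CDH1 did not, although the presence of a site is not a level.

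Ribosomal proteins assemble with ribosomal RNA into the small subunit, which decodes the mRNA, and the large subunit, which forms the peptide bond. Their mRNAs are among the most abundant of growing cells, start with a terminal oligopyrimidine (TOP) tract through which mTOR controls their translation, and have very short 3′UTRs, so that the stop codon, the poly(A) signal and the poly(A) tail lie close together. Most of these genes also have processed pseudogenes, copies of the mRNA inserted elsewhere in the genome. RBMS3 is a single-stranded nucleic acid-binding protein with RNA recognition motifs that binds 3′UTRs rich in A and U. Each site in the data is a base that some or all tags lack. Such deletions were read by the authors as marks of crosslinking, at which reverse transcriptase can leave out a nucleotide. Tags are the unique RNA fragments read across that base, deletions are the tags that lack it, and the deletion percentage is the second as a share of the first.

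At least 1 site on the transcript strand lay in an exon of 61 of the 90 ribosomal protein genes (67.8%, 95% Wilson interval 57.6 to 76.5), against 32.0% of all protein-coding genes. At least 5 sites were found in 28 of the 90 genes, against 7.52% of all protein-coding genes. The background includes genes that are not transcribed in this line. All Wilson intervals cover counting error only, since neighbouring sites share tags and replicates were pooled. The mitochondrial ribosomal proteins, which are encoded in the nucleus and translated by the cytosolic ribosome, had a site in 45 of 78 genes (57.7%, 46.6 to 68.0), an interval that overlaps that of the cytosolic genes. The intervals of the 2 subunits overlapped. A site was present in 31 of 43 standard 60S genes (72.1%, 57.3 to 83.3), in 22 of 31 standard 40S genes (71.0%, 53.4 to 83.9) and in 3 of 3 P stalk genes. The 3 readthrough genes (RPS10-NUDT3, RPL17-C18orf32 and RPL36A-HNRNPH2) had no site of their own.

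The 61 genes held 300 exonic sites, of which 293 lay in 3′UTRs, 7 in coding sequence and 0 in 5′UTRs or noncoding exons. A site counted as 3′UTR if any annotated transcript of the gene has its 3′UTR there. For 288 of the 293 this was a protein-coding transcript, and the rest may be coding or intronic in the usual mRNA. The 3′UTR share was 97.7%, against 95.6% of the exonic sites of all protein-coding genes. This order is not firm, since among sites at which fewer than 30% of the tags lacked the base the share was 97.9% against 98.7% at other genes, and with 1 site per gene it was 96.7% against 97.2%. A further 3 sites, in introns of RPS9, RPS10 and RPS4X, were not counted. Sites within 50 nt of each other formed 79 clusters. There was 1 cluster in 47 genes, 2 clusters in 10 genes and 3 clusters in 4 genes, while 14 genes had a single site. The 300 sites were 1.08% of the 27706 sites in the list and held 2.08% of all deletions, 53424 of 2563207. They made up 4 of the 100 sites with the most deletions and also 4 of the 100 sites with the most tags.

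RPL30, a 60S protein, had the site with the most deletions of all ribosomal protein transcripts, at chr8:98041745 on the minus strand in its 3′UTR (hg38). There were 3985 deletions in 27447 tags, or 14.5% (14.1 to 14.9), which ranked 5th in the whole list by deletions. The 4 other RPL30 sites lay within 10 nt of it under much the same number of tags and had 48 to 161 deletions, so the deletions were concentrated at a single base. RPS29, a small zinc-binding 40S protein, followed with 2094 deletions in 75464 tags, or 2.77% (2.66 to 2.89), and ranked 22nd in the list. RPL23, a 60S protein that also binds the p53 regulator MDM2, had 1464 deletions in 25597 tags (5.72%). RPS21 of the 40S subunit had 1201 in 40405 tags (2.97%) and RPL37A of the 60S subunit had 1064 in 33080 tags (3.22%). RPL15, a 60S protein mutated in some patients with Diamond-Blackfan anaemia, had 1013 in 39070 tags (2.59%). RPL8, which lies near the peptidyl transferase centre, had 975 in 26054 tags (3.74%). These 7 transcripts thus combined deep coverage with deletions in a few percent of the tags, and RPL30 stood apart by its percentage.

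The next genes by deletions at a single base ranged from 575 to 781 deletions. RPS3, which lines the mRNA entry channel, had 781 in 28474 tags (2.74%). RPS4X, the X-linked form of a 40S protein, had 654 in 24560 tags (2.66%), RPLP1 of the acidic P stalk had 629 in 17240 tags (3.65%), and RPL13A, which also acts in a translational silencing complex after release from the ribosome, had 575 in 18395 tags (3.13%). Over the 61 genes, the site with the most deletions of each gene had a median of 232 deletions (32 to 3985), 11305 tags and a deletion percentage of 2.43. The lowest count was in RPL17, with 32 deletions in 337 tags. Of these 61 leading sites, 51 lay within 30 nt of an annotated transcript end and 58 had a poly(A) signal within 25 nt. A T was missing at 40 of them, an A at 16, a C at 4 and a G at 1.

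**Figure D1:**
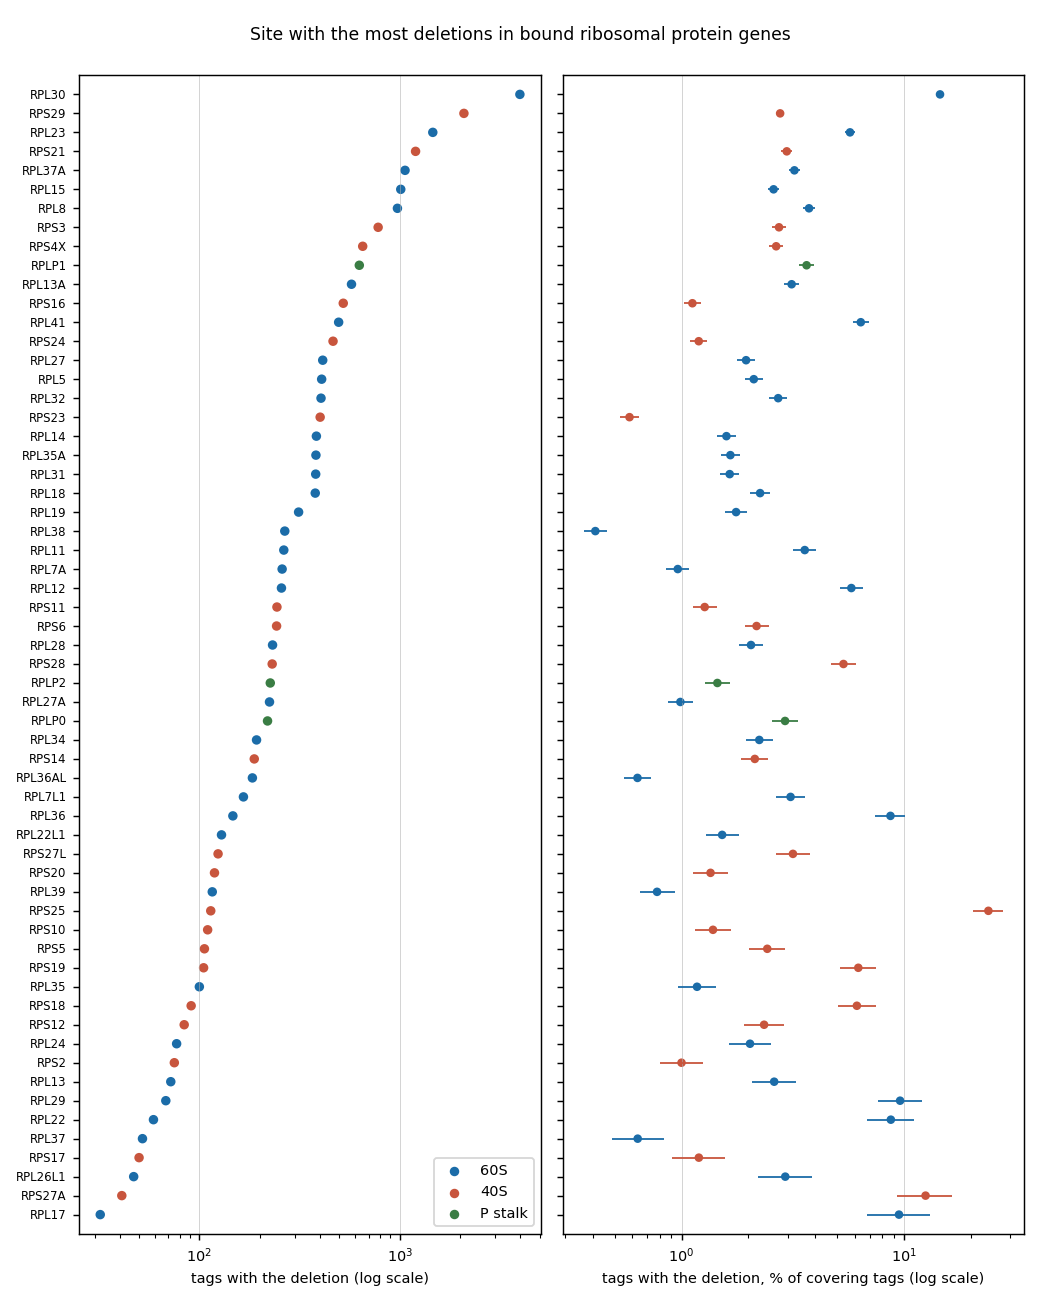
Site with the most deletions in each of 60 of the 61 ribosomal protein genes with a site, ordered by deletions: tags with the deletion (left, logarithmic) and these as a percentage of the covering tags (right, logarithmic, bars are 95% Wilson intervals), with colour giving the subunit. Deletions run from 3985 in RPL30 to 32 in RPL17, whereas the percentages follow no such order, with RPS25 highest at 23.9% and RPL38 lowest at 0.410%.

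Among leading sites with at least 100 tags, the highest deletion percentages came from both shallow and deep sites. Where fewer than 30% of the tags lacked the base, listed 3′UTR sites had at least 32 deletions. A shallow site could thus be listed only with a high percentage. RPS25, a 40S protein needed for initiation at some viral internal entry sites, had 114 deletions in 476 tags (23.9%, 20.3 to 28.0). RPL30 came next, and RPS27A, which is made as a fusion with ubiquitin, had 41 in 328 tags (12.5%, 9.35 to 16.5). The lowest percentages were those of RPL38, RPS23 and RPL36AL. RPL38, linked to selective translation of Hox mRNAs, had 267 deletions in 65152 tags (0.410%). RPS23, which sits at the decoding centre, had 401 in 68699 tags (0.584%), and RPL36AL had 184 in 29026 tags (0.634%). A low percentage therefore came with high deletion counts in some of these transcripts.

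The sequences around 6 of the leading 3′UTR sites are given to show where the missing base lay relative to the poly(A) signal. Each runs 5′ to 3′ on the transcript strand, from 15 bases before the missing base to 14 after it. Capitals mark the missing base, which is the 16th, and each AATAAA or ATTAAA, the 2 commonest forms of the poly(A) signal. Where the missing base is part of a run of the same letter, its place within the run is not known.
RPS29, chr14:49583591-49583620, minus strand: accatgataattcttTgtatataaAATAAA
RPL23, chr17:38850083-38850112, minus strand: aaAATAAAaaaaaaaActaaacccATTAAA
RPS21, chr20:62388478-62388507, plus strand: cacagatgtggaataTttgtcataAATAAA
RPL37A, chr2:216501439-216501468, plus strand: tAATAAAtgggttaaTttatgtaacaaaat
RPL15, chr3:23919509-23919538, plus strand: aaagtttgtaaaattCatacttAATAAAca
RPS3, chr11:75405650-75405679, plus strand: tgctctctaaagaccTttAATAAAattttg
In RPS29, RPS21, RPL15 and RPS3 the AATAAA followed the missing base, and in RPL37A it preceded it. In RPL23 the missing A was the last of a run of 11, which also holds part of an AATAAA, and an ATTAAA followed. The distance from the missing base to the nearest annotated transcript end was 26 nt in RPS29, 16 nt in RPL23, 26 nt in RPS21, 2 nt in RPL37A, 13 nt in RPL15 and 15 nt in RPS3.

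The 3′UTR sites of ribosomal protein transcripts lay at the very end of the mRNA. Their median distance to the nearest annotated downstream end of the gene was 19 nt (quartiles 11 and 35, 293 sites), against 34 nt (16 and 245) for the 20937 other 3′UTR sites and 26.5 nt for the 110 of mitochondrial ribosomal proteins. Of the 293 sites, 73 lay within 10 nt of an end, 82 at 11 to 20 nt, 49 at 21 to 30 nt, 40 at 31 to 50 nt and 8 at 51 to 100 nt. Together, 86.0% (81.6 to 89.5) were within 100 nt of an end, against 68.9% (68.3 to 69.5) of other 3′UTR sites and 73.6% (64.7 to 81.0) of the mitochondrial ribosomal protein sites. This order depends on counting every annotated end. With 1 representative transcript per gene, the median was 558 nt for ribosomal protein sites against 98 nt for the others, and 40.8% against 50.2% were within 100 nt.

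**Figure D2:**
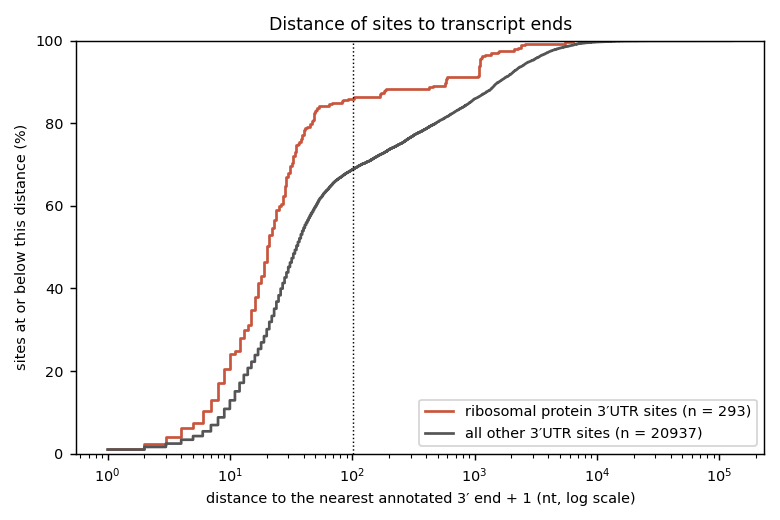
Cumulative share of 3′UTR sites (vertical axis, percent) by distance from the missing base to the nearest annotated transcript end plus 1 nt (horizontal axis, logarithmic), for the 293 sites of ribosomal protein transcripts and the 20937 other 3′UTR sites, with a dotted line at 100 nt. At that line the curves stand at 86.0% and 68.9%.

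The same sites were also close to the stop codon. The median distance after the last coding base was 39.5 nt (quartiles 24 and 73.25, 288 sites with a value), against 989 nt for other 3′UTR sites (398 and 2028, 20675 sites) and 221 nt for mitochondrial ribosomal proteins. At 177 of 288 sites the missing base was within 50 nt of the last coding base (61.5%, 55.7 to 66.9), against 1.78% of other 3′UTR sites and 7.34% of the mitochondrial ribosomal protein sites. The position relative to the stop codon thus differed far more between the groups than the position relative to the transcript end. The length of the 3′UTR sets how far from the stop codon a site near the end can lie.

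A poly(A) signal was present in the 51-nt window (25 nt on each side of the missing base) of 251 of the 293 sites, or 85.7% (81.2 to 89.2), against 65.1% (64.5 to 65.8) of other 3′UTR sites and 73.6% (64.7 to 81.0) of mitochondrial ribosomal protein sites. The motifs were searched on the transcript strand only. AATAAA alone was in 73.7% of windows against 52.4%, and it began within 10 nt of the missing base in 47.4% against 32.5%. The median offset of AATAAA from the missing base was -1 nt in ribosomal protein transcripts and 0 nt in the others. The AUA motif of the study's methods, in which A, G or T is followed by A or T, then ATA, then A or T, then A, was in 66.2% (60.6 to 71.4) of windows against 51.5% (50.8 to 52.2) of other 3′UTR windows and 65.5% (56.2 to 73.7) of those of mitochondrial ribosomal proteins. Among sites with 3000 to 30000 tags, a restriction added after seeing the data, the shares were close, 61.0% in ribosomal protein transcripts and 59.0% in the others. This motif can contain AATAAA. When matches that contain AATAAA were not counted, the order turned, with 9.90% (6.98 to 13.9) of ribosomal protein windows and 15.6% (15.1 to 16.1) of the others holding the motif.

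Of the 293 missing bases, 56.3% (50.6 to 61.9) were T, 26.6% A, 9.56% C and 7.51% G, against 65.6% T, 21.4% A, 7.09% C and 5.88% G at other 3′UTR sites. T was thus the most frequent missing base in both groups, at a lower share in ribosomal protein transcripts. Among sites whose missing base was flanked by other letters on both sides, so that its identity is certain, T made up 52.1% (40.7 to 63.3) of 71 ribosomal protein sites and 34.3% (32.7 to 35.9) of 3405 others, the opposite order. Over all 300 exonic sites, the median deletion percentage was 1.15 at the 170 sites with a missing T, 0.590 at 80 with an A, 0.495 at 28 with a C and 0.334 at 22 with a G.

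Ribosomal protein sites were deeply covered and carried deletions in a small share of tags. The median number of tags was 19883 (quartiles 8629 and 31441) against 4845 (1496 and 12682) at other 3′UTR sites, and 72.4% against 30.9% of sites had 10000 tags or more. The median number of deletions was 93 (56 and 184) against 64 (46 and 111), and the median deletion percentage was 0.642 (0.298 and 1.90) against 1.98 (0.800 and 4.86). Where fewer than 30% of the tags lacked the base, the lowest count was 32 deletions in both groups, so a listed site can have a low percentage only where there are many tags. In classes of like depth, ribosomal protein sites had the higher median up to 1000 tags and the lower one in each deeper class. Most of the medians lay closer together within these classes. Up to 300 tags they were 93.1 for 12 ribosomal protein sites and 90.9 for the others, above 300 and up to 1000 tags they were 9.11 (8 sites) and 7.83, and above 1000 and up to 3000 tags they were 2.61 (13 sites) and 3.27. These shallow classes held few ribosomal protein sites. Above 3000 and up to 10000 tags the medians were 1.44 for 48 ribosomal protein sites and 1.51 for the others, above 10000 and up to 30000 tags they were 0.538 (134 sites) and 0.602, and above 30000 tags they were 0.256 (78 sites) and 0.274. In each of the 6 classes the difference between the medians was smaller than the distance between the quartiles.

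**Figure D3:**
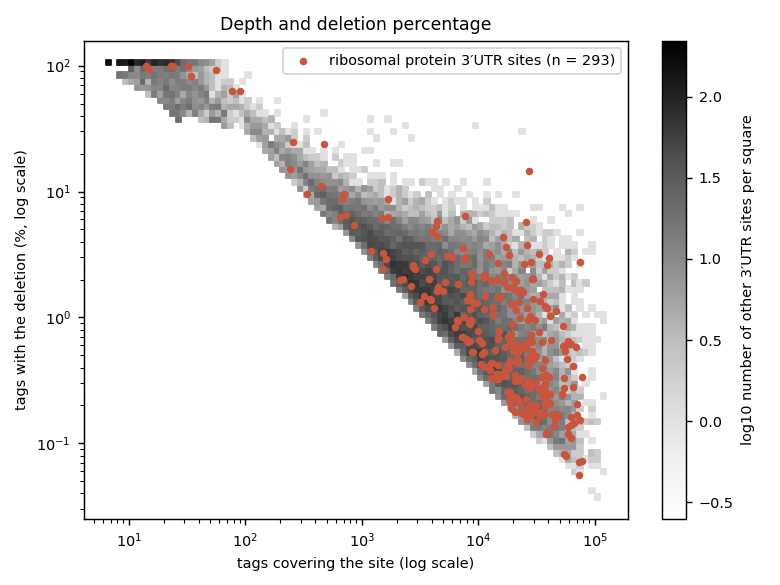
Deletion percentage (vertical axis, logarithmic) against the number of tags (horizontal axis, logarithmic) of each 3′UTR site, with the 293 ribosomal protein sites as points over a grey map of how many other 3′UTR sites fall in each square. Ribosomal protein sites lie mostly at the deep and low end of the cloud, around 19883 tags and 0.642%, and 10 lie at its upper left with at most 90 tags.

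Deletions in 30% or more of the tags were found at 11 exonic sites in 9 genes, the 10 at the upper left of that plot and a coding site of RPL8. They were covered by 14 to 90 tags, and all 11 lay more than 100 nt from an annotated end. Examples were RPL13A (14 deletions in 14 tags), RPL27A (23 in 23), RPL7L1 (32 in 32), RPS23 (57 in 90) and RPS29 (23 in 23, and 52 in 56). In RPS29 and RPS23 these sites lay apart from the deeply covered cluster of the same gene. A poly(A) signal was in the window of 3 of the 10 such sites in 3′UTRs, and the same share at other genes was not computed. Deletions in under 30% of the tags were found at 283 of the 293 ribosomal protein 3′UTR sites (96.59%), against 18207 of the 20937 others (86.96%). Every tag lacked the base at 1.71% of the ribosomal protein sites and 6.37% of the others. Sites with high percentages were thus rarer in ribosomal protein transcripts, whose sites were also more deeply covered. Whether deletions in all or most tags mark crosslinks was not tested.

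RPL15 had the most sites, 30 in 3 clusters. The first cluster had 10 sites from 2 to 42 nt after the last coding base, at chr3:23919500-23919540, with 63 to 1013 deletions, and each was within 37 nt of an annotated end. The second had 14 sites at chr3:23919702-23919784, or 204 to 286 nt after the last coding base, with 45 to 553 deletions and up to 40973 tags. No annotated end was near it downstream, the next one being 1072 to 1154 nt away, but 11 of its 14 windows held AATAAA. The annotated end near the first cluster lies upstream of it and is not counted in this distance. The third had 6 sites at chr3:23920789-23920833, 23 to 67 nt from an end, with 47 to 251 deletions and up to 19638 tags. The depth of the second cluster was therefore close to that of the first, whose deepest site had 42798 tags, and above that of the third.

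Clusters far from any annotated downstream end were few. Of 41 ribosomal protein 3′UTR sites over 100 nt from an end, 31 had deletions in under 30% of their tags, and 26 of these lay in RPL15 (14 sites), RPS4X (6) and RPL36AL (6). Of these 26 windows, 23 held a poly(A) signal. RPS4X had its 6 sites at chrX:72272610-72272640, 568 to 598 nt from the nearest annotated end, and each of the 6 windows held ATTAAA but none held AATAAA. RPL36AL, a paralog of RPL36A, had its 6 sites at chr14:49618697-49618718, 167 to 188 nt from an end, with AATAAA in each window. Over all far sites, 73.2% (58.1 to 84.3) of the 41 ribosomal protein windows held a poly(A) signal, against 47.5% (46.3 to 48.7) of 6514 other far windows. Of the 30 ribosomal protein windows with a signal, 23 came from RPL15, RPS4X and RPL36AL. Neighbouring windows of these genes overlap and can hold the same signal, so the contrast rests largely on these genes. Within 100 nt of an end the shares were 87.7% (83.1 to 91.2) and 73.1% (72.4 to 73.8). The far windows with the most deletions are given with the same marks, to show signal-like sequence where no end is annotated within 100 nt downstream.
RPS4X, chrX:72272626-72272655, minus strand: gacatgtcagatcttTgtacgtaATTAAAa
RPL15, chr3:23919739-23919768, plus strand: taaaacatactgtgtGgtataacaggctta
RPL36AL, chr14:49618684-49618713, minus strand: taaatacagtgatatTcttacgcaaacttt
The RPS4X stretch held the ATTAAA after the missing T. The RPL15 and RPL36AL stretches held no signal within the 30 printed bases, since the AATAAA of both windows ran past the ends of the print.

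After RPL15, the genes with the most sites were RPS23 (15), RPL35A and RPL37A (12 each) and RPS29 (11). Their deeply covered sites fell in narrow stretches, nearly all at the start of the 3′UTR. In RPS23, 14 sites lay 1 to 40 nt after the last coding base, with 41 to 401 deletions and 38423 to 74380 tags. In RPL35A, which is mutated in some patients with Diamond-Blackfan anaemia, 12 sites spanned chr3:197955769-197955839, with 41 to 382 deletions. Of these, 11 lay 18 to 69 nt after the last coding base. The first lay in no 3′UTR of a protein-coding transcript and has no such distance. In RPL37A, 10 sites lay 16 to 56 nt after the last coding base with 42 to 1064 deletions, and in RPS29, 9 sites lay 43 to 84 nt after it with 56 to 2094 deletions. Neighbouring sites shared the same tags, so they are not independent observations. Within such a stretch the deletion percentage ranged from 0.0723 to 2.77 in RPS29 and from 0.0558 to 0.662 in RPS23, so the missing bases were more evenly spread in RPS23.

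**Figure D4:**
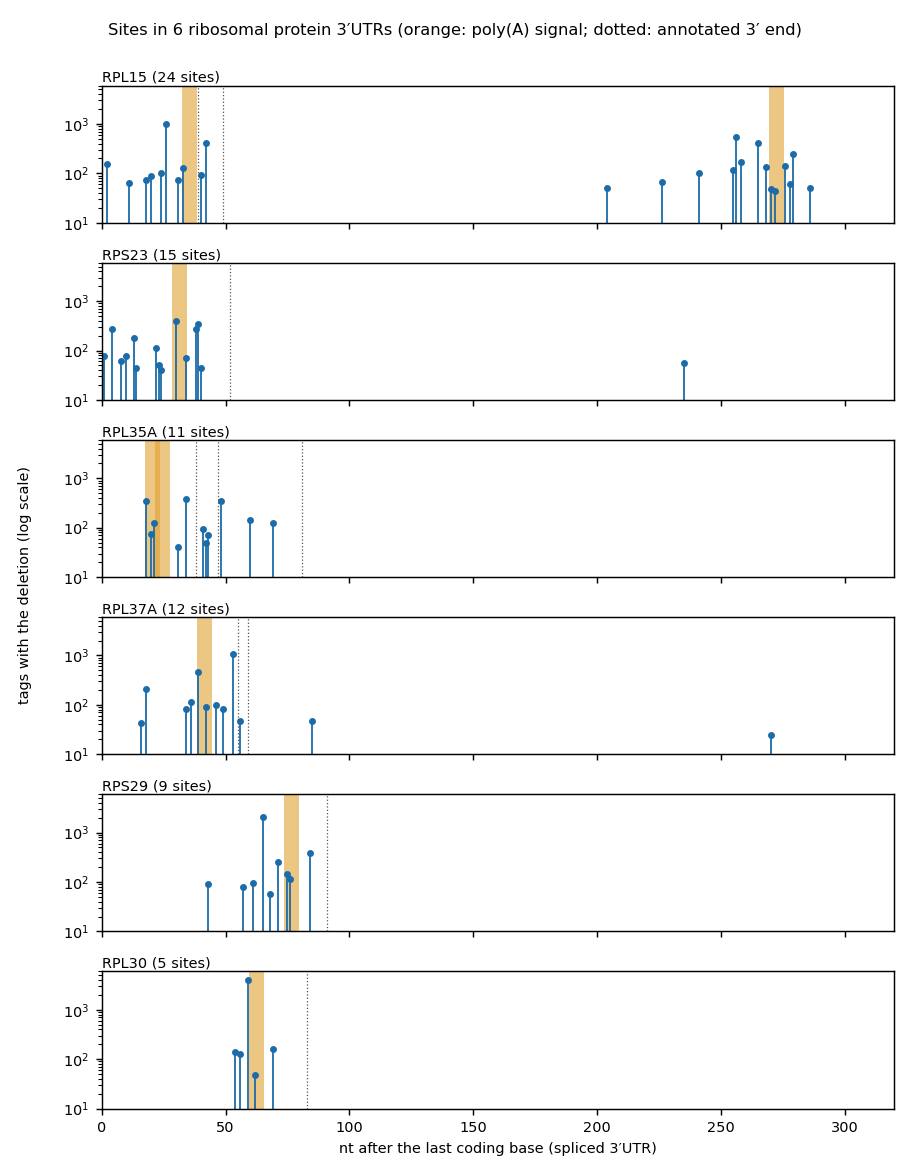
Sites of the 5 transcripts with the most sites and of RPL30, by distance after the last coding base (horizontal axis, nt) and tags with the deletion (vertical axis, logarithmic), with orange bands for AATAAA and dotted lines for annotated transcript ends. Sites beyond the axis or without such a distance are left out. RPL15 thus shows 24 of 30 sites in 2 groups, and RPL35A shows 11 of 12. RPL30 shows a line of 3985 deletions beside 4 of 161 or fewer.

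Coding sequence held 7 of the 300 exonic sites, against 664 of 22196 in all protein-coding genes. Of the 7, 5 lay within 60 nt of an annotated transcript end, a limit used for this count only. The share of coding sites of other genes so close to an end was not computed. RPLP2 had 119 deletions in 10005 tags (1.19%) at chr11:812826, 24 nt from an end, and its partner in the P stalk RPLP1 had 82 in 6640 tags (1.23%) at chr15:69455497, 49 nt from an end. RPS12 had 84 in 3574 tags (2.35%), RPL37 had 48 in 5001 tags (0.960%) and RPS6, the 40S protein phosphorylated by S6 kinases, had 40 in 966 tags (4.14%). RPS27A had its site 108 nt from an end. RPL8 had 17 deletions in 29 tags (58.6%), 307 nt from an end. RPS12 and RPS27A were the only ribosomal protein genes whose sites were all in coding sequence. The RPLP1 and RPLP2 sites are printed side by side because both lie in the codons of the C-terminal tail that the P stalk proteins share.
RPLP1, chr15:69455482-69455511, plus strand: acatgggctttggtcTttttgactaaacct
RPLP2, chr11:812811-812840, plus strand: acatgggatttggccTttttgATTAAAttc
The stretches were identical at 24 of 30 positions, and in both the missing base was the first listed T of a run of 5. In RPLP2 the stop codon itself forms part of an ATTAAA. RPLP0, the third P stalk gene, had 4 sites, all in the 3′UTR, with up to 219 deletions in 7500 tags (2.92%).

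A site was present in 5 of 10 paralogs, 56 of 77 standard genes and 32.0% of all protein-coding genes. In 7 of 10 pairs of a standard gene and its paralog, only 1 of them had a site. No such count was made for other gene pairs. Of the 10 pairs, a site was found only in the paralog in 4 pairs, only in the standard gene in 3, in both in 1 and in neither in 2. RPL7L1 had up to 166 deletions in 5370 tags (3.09%), RPL26L1 had 47 in 1606 tags (2.93%), RPL36AL had 184 in 29026 tags, and RPS27L, a p53 target, had up to 124 in 3914 tags (3.17%), whereas RPL7, RPL26, RPL36A and RPS27 had no site. RPL39 and RPS4X had sites, whereas RPL39L and the Y-linked RPS4Y1 and RPS4Y2 had none. RPS4X thus counts in 2 of the 3 pairs with a site only in the standard gene. Near-identical genomic copies, counted as described below, numbered 19 for RPL7, 6 for RPL26, 5 for RPL36A and 13 for RPS27. Their paralogs had 3, 1, 2 and 0. In the pairs with a site only in the standard gene, RPL39 had 18 copies and RPL39L 5. RPS4X had 6, and RPS4Y1 and RPS4Y2 had 0. Whether the Y-linked genes or the other paralogs are transcribed in this line was not examined here. No site was found in RPL3, RPL3L, RPL10 or RPL10L. The pair with sites in both was RPL22, a protein needed for normal T cell development, and RPL22L1. RPL22 had 59 deletions in 676 tags (8.73%), 1206 nt from an annotated end. RPL22L1 had up to 129 in 8473 tags (1.52%) at the end of its transcript. These positions are unlike and tags are known only at listed sites, so the coverage of these transcripts cannot be compared.

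There were 21 standard genes with no site, among them RPL3, RPL4, RPL6, RPL7, RPL9, RPL10, RPL10A, RPL21, RPL23A, RPL26, RPL36A, RPS3A, RPS7, RPS9, RPS13, RPS15, RPS15A, RPS26, RPS27 and RPSA. Their transcripts also end with a poly(A) signal. One was present in the last 50 nt of an annotated transcript in 24 of 26 ribosomal protein genes with no site (standard genes and paralogs) and in 56 of the 61 with a site. The number of near-identical copies in the genome moved with the presence of a site. For 87 genes, the mRNA from 50 nt before to 50 nt after the end of the coding sequence was compared with hg38, and a copy was counted at 95% identity or more over 90% or more of this stretch. The median was 5 copies (0 to 20) in the 26 genes with no site and 1 copy (0 to 20) in the 61 with a site. A perfect copy existed for 10 of the 26 and for 7 of the 61. Among standard genes, all 31 with 0 or 1 copy had a site, against 25 of the 46 with 2 or more.

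Genes with many copies and no site included RPS26 with 20 copies, RPL7 with 19, RPSA with 16, RPS27 with 13 and RPS3A with 10. The count of copies did not separate the groups fully, since RPL7A with 20 copies, RPL39 with 18, RPL17 and RPS2 with 16 each, and RPL12 and RPL41 with 12 each had sites. A site was found in 16 of 20 genes with 0 copies, 34 of 41 with 1 to 4, 4 of 14 with 5 to 9 and 7 of 12 with 10 or more. The genes with 0 copies and no site were the paralogs RPL3L, RPL10L, RPS4Y1 and RPS4Y2. How tags that match several places of the genome were treated is not given in the sources used here. Annotated ribosomal protein pseudogenes, picked by name, held 6 sites in 6 of 1600 genes. These pseudogenes were not matched to the copies counted here. Whether tags of the genes with no site were lost to their copies was not tested, and the comparison of copies was chosen after the genes with no site had been seen.

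**Figure D5:**
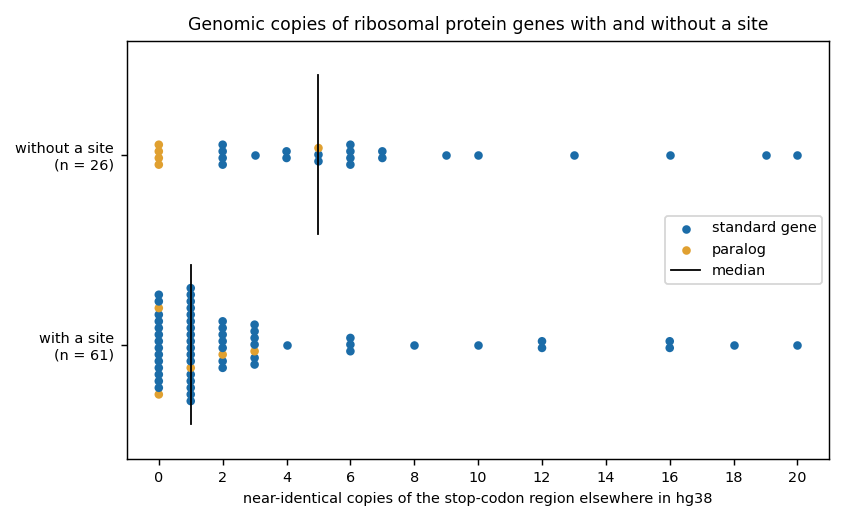
Number of near-identical genomic copies of the stretch around the stop codon (horizontal axis), 1 point per gene, for 26 ribosomal protein genes without and 61 with a site, with vertical lines at the medians and colour for standard genes and paralogs. The medians are 5 and 1, and no standard gene without a site has fewer than 2 copies.

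Ribosomal proteins that carry other names had sites too. FAU, made as a fusion with a ubiquitin-like protein, had up to 261 deletions in 15365 tags (1.70%), 15 nt from an end. RACK1, a 40S scaffold for signalling proteins, had up to 607 in 15519 tags (3.91%), 13 nt from an end. Other mRNAs with a TOP tract had a site in 16 of 19 genes (84.2%, 62.4 to 94.5), the exceptions being EEF1D, EEF1G and EIF3L. Ribosome assembly factors had one in 22 of 30 genes (73.3%, 55.6 to 85.8). Of 18 genes mutated in Diamond-Blackfan anaemia, all ribosomal protein genes counted above, 13 had a site (72.2%, 49.1 to 87.5, beside the 32.0% of all protein-coding genes), and RPS7, RPS15A, RPS26, RPS27 and RPL26 had none. The intervals of the TOP and assembly lists overlap that of the ribosomal protein genes, and the anaemia genes are a subset of them.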

How the data were processed

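Cells were crosslinked, tagged RBMS3 was recovered with its RNA, and the RNA was given a poly(A) tail, captured with oligo(dT) and reverse transcribed. Natural poly(A) tails bind oligo(dT) as well. The authors appended molecular identifiers to the reads, aligned them to hg38 with the CLIP Tool Kit (version not given in the sources used here), pooled unique tags of the 2 replicates, and called deletion sites with limits on the false discovery rate and on an undefined fold. The deposited values are counts of tags and of deletions at each site, not normalized, per the file's own fields. Library totals and per-replicate values were not analysed here, so depth is given per site.

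The missing base was taken as the centre of each 21-nt interval. Sites were placed by strand on GENCODE release 44 (all transcripts), with precedence 3′UTR over 5′UTR over remaining exons over introns. A site shared with a readthrough gene was given to the component gene. Distances run to the nearest annotated downstream end. Motif windows had 25 nt on each side. Copies were counted with blastn 2.17.0 (word size 20). Placement on 1 representative transcript per gene and the motif searches were tested on simulated sites. The distances, and placement on all transcripts, were not tested in this way. The software was Python 3.11.15 with pysam 0.24.0, pandas 2.3.3, numpy 2.4.6, matplotlib 3.10.9 and scipy 1.17.1, and samtools 1.23.1. No test between samples was possible, and shares have 95% Wilson intervals.

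The ribosomal protein genes, the lists of paralogs, assembly factors, TOP mRNAs and anaemia genes, and the alternatives were chosen with earlier results of these data known. The named genes are the 12 with the most deletions at a base, the 5 with the most sites, the 3 highest and 3 lowest deletion percentages among leading sites with at least 100 tags, all with a coding site, all paralog pairs and all with no site. Some genes that this rule selects are not reported here. Other genes named as examples were chosen after their values were seen. Alternatives were 20 or 50 deletions at least, deletions in at least 10% or under 30% of tags, 1 site per gene, strand ignored, 1 representative transcript, windows of 10 or 50 nt, AATAAA alone and the AUA motif without AATAAA. Restriction to 3000 to 30000 tags and to genes with no near-identical copy was added after seeing the data.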

Additional observations from a re-analysis of the deposited data

How the results depend on the processing

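Of 95 recomputed values, 71 stayed within the interval of the reported value and 24 moved. With deletions in at least 10% of tags, 14 genes had a site, the 3′UTR share was 88.2% (17 sites), the median distance to an end was 1568 nt (442 nt for other 3′UTR sites, 15 sites), 26.7% were within 100 nt (29.5%), 40% held a poly(A) signal (25.4%) and 40% the AUA motif (24.4%), 80% lacked a T (69.3%), and the median deletion percentage was 82.4 (80), with other sites in parentheses. With 1 representative transcript per gene the median distance was 558 nt (98 nt for other sites), with 40.8% within 100 nt (50.2% for other sites). With 1 site per gene the values were 16 nt, 93.2% within 100 nt, 98.3% with a poly(A) signal, 66.1% with a missing T and a median deletion percentage of 2.43. Windows of 10 nt on each side held a poly(A) signal in 47.4% and the AUA motif in 34.5%, windows of 50 nt in 95.2% and 76.8%, AATAAA alone gave 73.7%, and the AUA motif without AATAAA 9.90% (15.6% for other sites). Restriction to 3000 to 30000 tags, added after seeing the data, gave 17.5 nt (27 nt for other sites), 92.9% within 100 nt (78.1%), a poly(A) signal in 86.8% (75.8%), the AUA motif in 61.0% (59.0%), a missing T in 57.7% (61.7%) and a median deletion percentage of 0.694 (1.14), and restriction to genes with no near-identical copy, also added, 97.6%. The ribosomal protein value stayed on the same side of the value of other 3′UTR sites in all but 11 of 86 comparisons. These were the 3′UTR share with under 30% of tags, 1 representative transcript or 1 site per gene, both distance measures with at least 10% of tags or 1 representative transcript, the missing T with at least 10% of tags or at isolated bases, the median percentage with at least 10% of tags, and the AUA motif without AATAAA.

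No paired analysis was possible because the replicates of the single group were merged before calling, which also prevents leaving a replicate out or seeing whether a site rests on 1 of them. The absence of a listed site does not show absence of contact. Site counts of genes with near-identical copies are uncertain.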
